A study of Mus musculus with 6 samples.

Results

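The 10 genes described here encode mouse proteins that polyoma middle T antigen binds or switches on: the Src family kinases Src, Yes1 and Fyn, the adaptor Shc1, the PI3-kinase subunits Pik3ca and Pik3r1, the protein phosphatase 2A (PP2A) subunits Ppp2ca and Ppp2r1a, the phospholipase Plcg1 and the kinase Akt1. They were chosen by name for this role and not by any measured value, though earlier results of these data were known. All 10 were found among the 10995 rows of the count table. Messenger RNA came from mammary tumor cells that had grown in MMTV-PyVT mice, animals of the FVB/NJ strain that carry the middle T oncogene as a transgene. There were 3 libraries from mice labelled knockout for Nr4a1 (Nr4a1-/-) and 3 from mice labelled wild type. Nr4a1 is an orphan nuclear receptor induced as an immediate early gene, and both groups carried the transgene and were described as age matched. The transgene was driven by the MMTV promoter, which is active mainly in mammary epithelium. The labels give neither the disrupted part of the Nr4a1 allele, nor the ages, nor how many animals stand behind each group. The p-values therefore reflect the spread among the 6 libraries, and part of it may be technical. The level of the middle T transcript itself was not analysed here.

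Middle T is a membrane protein with no enzyme activity of its own. It assembles a signalling complex on its cytoplasmic side: the PP2A core is bound first, a Src family kinase is bound and held active, and the kinase then phosphorylates tyrosines of middle T that serve as docking sites for Shc1, for the PI3-kinase regulatory subunit and for phospholipase C gamma. Shc1 leads through Grb2 to Ras, and PI3-kinase leads to Akt. In mammary epithelium this is a standard model of a tumor driven by receptor-like tyrosine kinase signalling. These events act on proteins and their phosphorylation, whereas the libraries measure messenger RNA.

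The 3 kinases share a regulatory tyrosine near their carboxy-terminal end, which the kinase Csk phosphorylates to keep them inactive and which is unphosphorylated in kinase held by middle T. The last 30 bases of each coding sequence are shown because they hold that site and show how similar, yet separable, the 3 transcripts are. They are from the GENCODE M21 transcripts of GRCm38, 5′ to 3′ and ending with the stop codon, with the tyrosine codon in capitals.
Src (chromosome 2, plus strand): ccacagTACcagcccggggagaacctatag
Yes1 (chromosome 5, plus strand): ccacagTACcaaccaggagaaaatttataa
Fyn (chromosome 10, plus strand): ccccagTATcagcccggtgaaaacctgtga
Over these 30 bases Yes1 and Fyn each differed from Src at 7 positions, and the tyrosine codon stood 8 codons from the end, the stop codon included, in all 3. None of the 31-base words in the longest transcripts of Src and Fyn occurred in a transcript of another gene. In Yes1 13.8% did, nearly all of them (12.99%) in Gm10461, an annotated transcript on the opposite strand that was not among the rows.

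None of the 10 transcripts passed the test between knockout and wild type libraries. Of all genes in the table, edgeR's quasi-likelihood test called 0% at a Benjamini-Hochberg adjusted p of 0.05, and of the members it called 0 higher and 0 lower. At an unadjusted p of 0.05 it gave 1 of 10 members, Akt1, where 7.88% of all genes fell under that value. DESeq2 called 0 members and 0.937% of all genes, and limma-voom called 0 members. The knockout and wild type values did not overlap for 1 member, again Akt1, lower in the knockout libraries. Over all genes 17.4% did not overlap, 8.39% with knockout above and 9.05% with knockout below wild type, so that 1 of 10 was not more than the background. Log2 fold changes here are knockout over wild type. Their median was 0.05 over the members and -0.0024 over all genes, and their median size without regard to sign was 0.082 over the members and 0.13 over all genes. Of the members 6 lay above 0 and 4 below.

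**Figure D1:**
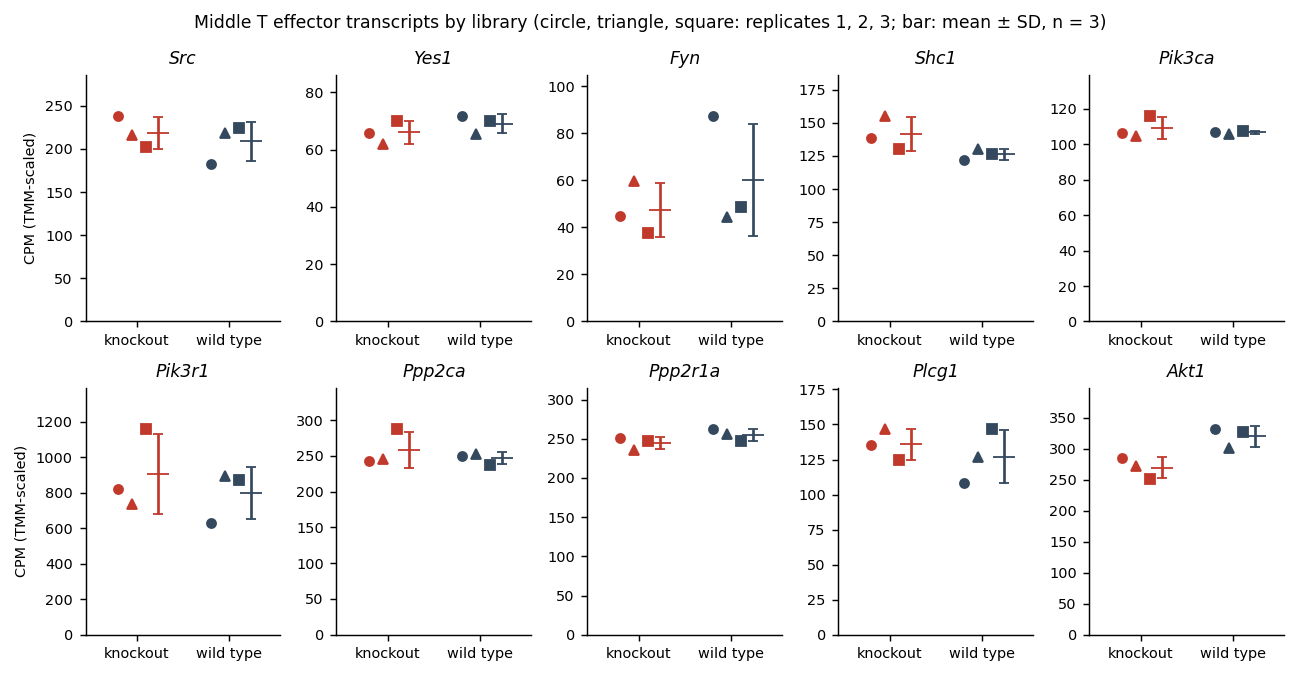
Level of each of the 10 transcripts in CPM (with TMM factors, axis from 0) in the 3 knockout libraries (red, left) and the 3 wild type libraries (blue, right), with circles, triangles and squares for replicates 1, 2 and 3 and bars for the mean ± SD (n = 3). The 2 groups are apart for Akt1 (252 to 285 CPM in knockout, 301 to 332 CPM in wild type), and wild type replicate 1 is high for Fyn and low for Pik3r1.

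Src was the Src family kinase with the most reads of these 3. In CPM (counts scaled to the library total, with TMM factors) it stood at 239, 216 and 202 CPM in knockout libraries 1, 2 and 3, and at 183, 218 and 225 CPM in wild type libraries 1, 2 and 3. The groups overlapped, and wild type replicate 1 was the lowest of the 6. Its log2 fold change of 0.07 had an SE of 0.11 and a 95% interval of -0.20 to 0.33 (edgeR adjusted p = 0.81). Src lies on chromosome 2 at 157418444 to 157471862, plus strand, in GRCm38.

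Yes1, the closest relative of Src in the complex, varied little. It stood at 65.7, 62.1 and 70.0 CPM in knockout libraries and at 71.8, 65.4 and 69.8 CPM in wild type libraries. The groups overlapped, with a log2 fold change of -0.07 (SE 0.08, edgeR adjusted p = 0.73, 95% interval -0.25 to 0.12). The highest library was 1.16 times the lowest, a smaller span than in all but 13.1% of genes. The gene lies on chromosome 5 at 32611171 to 32687057, plus strand.

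Fyn, which also serves in lymphocytes and in neural cells, was the most uneven member. It stood at 44.7, 59.8 and 37.7 CPM in knockout libraries and at 87.5, 44.3 and 48.5 CPM in wild type libraries. Wild type replicate 1 was 2.32 times the lowest library, and the other wild type libraries lay within the range of the knockout libraries. The log2 fold change of -0.34 (SE 0.31, edgeR adjusted p = 0.67) had a 95% interval of -1.10 to 0.42 and was 0.03 without wild type replicate 1. Its place is chromosome 10, 39368855 to 39565381, plus strand.

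Divided by exon length, Src was the largest of the Src family transcripts in every library. The share of a family is the member's CPM per kb of annotated exon over the sum of the family members in the table. For the Src family these were Src, Yes1, Fyn, Lyn and Frk. Lck, Fgr and Blk were not among the rows and were not analysed here. Src held 58.9, 55.2 and 52.3% in knockout libraries and 42.7, 57.2 and 55.3% in wild type libraries. Yes1 held 9.74% ± 0.72 in knockout and 9.90% ± 0.14 in wild type libraries (SD, n = 3 each). Fyn held 12.04% ± 2.88 in knockout and 14.7% ± 4.99 in wild type libraries (SD, n = 3 each), with 20.4% in wild type replicate 1. Lyn and Frk held 11.1% and 11.7% in knockout and 11.8% and 11.9% in wild type libraries. Of the 31-base words of Lyn 26.6% also occur in other annotated genes. None of the 3 members' shares differed in a two-sided exact permutation test of the 6 shares (p = 0.7 for Src, 0.9 for Yes1 and 0.5 for Fyn). Over all families 9 such tests were run, 3 libraries against 3 cannot go below 0.1, and every adjusted p was at least 0.79.

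**Figure D2:**
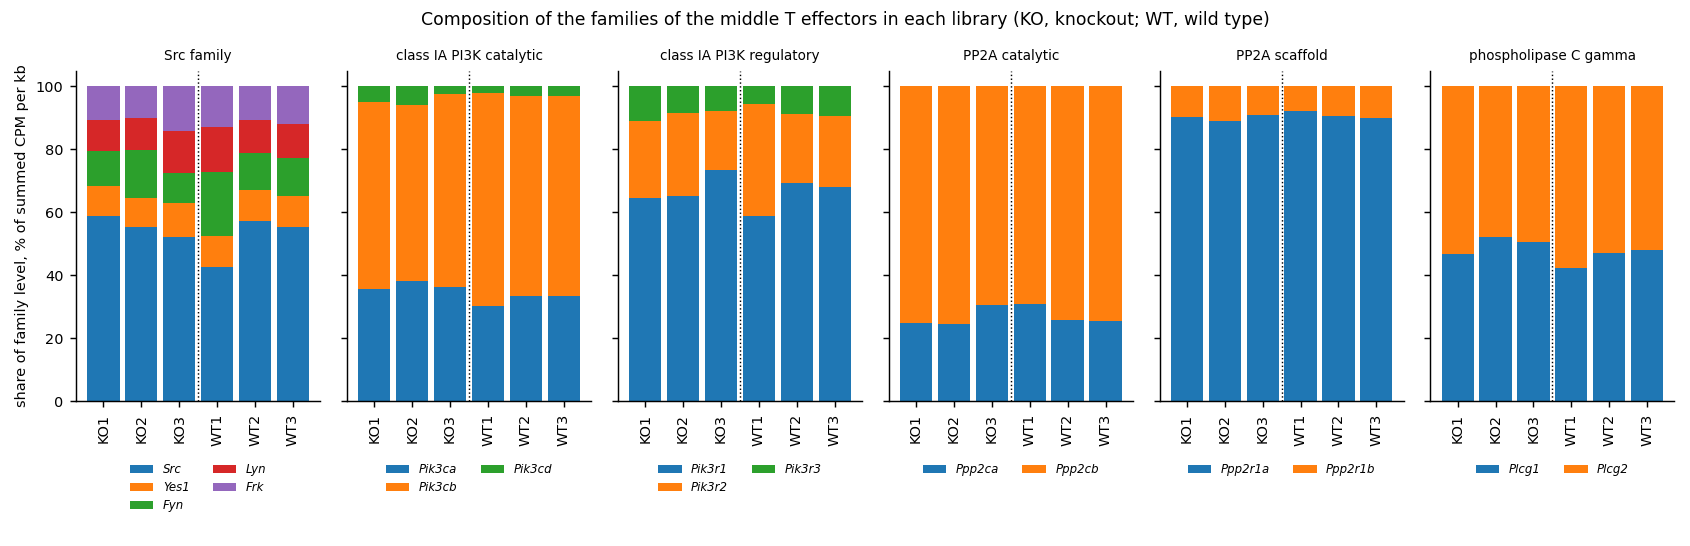
Share of each gene in its family's summed level (percent of summed CPM per kb of annotated exon, stacked to 100) in the knockout libraries KO1 to KO3 and the wild type libraries WT1 to WT3. Pik3ca holds 35.6 to 38.1% of the catalytic PI3-kinase level in knockout and 30.2 to 33.5% in wild type libraries, and the Src segment is smallest in WT1, at 42.7%.

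Among further Src family members and the regulators of the kinases, 7 of the 12 genes listed were in the table. Of these 0 passed the test, and 2 lay above and 5 below 0, with a median log2 fold change of -0.09. The groups did not overlap for 0 of the 7, where 17.4% of all genes did not overlap. Csk, the kinase that inhibits Src, Yes1 and Fyn, stood at 77.0, 79.9 and 68.4 CPM in knockout libraries and at 63.8, 75.2 and 75.8 CPM in wild type libraries. Its log2 fold change was 0.07 (SE 0.10). Pag1, a membrane adaptor that brings Csk to the kinases, stood at 6.98, 9.98 and 11.9 CPM in knockout libraries and at 27.3, 10.04 and 8.42 CPM in wild type libraries. As with Fyn, wild type replicate 1 was apart, and the log2 fold change of -0.67 (SE 0.50) was 0.05 without it. The 10 listed Src substrates and adhesion partners were all in the table, 6 above and 4 below 0. Paxillin, Pxn, stood at 230, 218 and 218 CPM in knockout libraries and at 265, 243 and 250 CPM in wild type libraries. Its groups did not overlap, the only such case of the 10, where 9.05% of all genes lay apart with knockout below. At a log2 fold change of -0.19 (SE 0.07) Pxn stayed short of the threshold (edgeR adjusted p = 0.57). Focal adhesion kinase, Ptk2, had the smallest p among those above 0, with a log2 fold change of 0.22 (SE 0.12, edgeR adjusted p = 0.58).

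Shc1, the adaptor that couples middle T to Grb2, stood at 138, 155 and 130 CPM in knockout libraries and at 122, 130 and 126 CPM in wild type libraries. The groups touched, with knockout replicate 3 at 130.05 and wild type replicate 2 at 130.13 CPM. Shc1 was not called, at a log2 fold change of 0.16 (SE 0.08, 95% interval -0.04 to 0.37, edgeR adjusted p = 0.57), which was 0.09 without knockout replicate 2. Shc1 lies on chromosome 3 at 89418443 to 89430027, plus strand. It has 2 promoter windows in RefSeq (GRCm38.p6) and makes several proteins from alternative starts, which counts per gene do not tell apart. Of its 31-base words 18.04% also occur in other annotated genes, and 17.92% occur in AC123951.1, which was not among the rows. Shc2 and Shc3 were not among the rows, so no share was formed.

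Downstream of Shc1, 18 of 20 listed genes of the Ras and MAP kinase arm were in the table. Of these 0 passed, 4 lay above and 14 below 0, and the median log2 fold change was -0.08. The groups did not overlap for 4 of the 18, all lower in knockout, Grb2, Sos2 and Hras among them, where 9.05% of all genes lay apart in that direction and 17.4% in either. Ksr1, a scaffold of the MAP kinase cascade, stood at 26.6, 23.1 and 40.5 CPM in knockout libraries and at 19.1, 23.99 and 19.8 CPM in wild type libraries. Its log2 fold change of 0.52 (SE 0.23, edgeR adjusted p = 0.57) was 0.25 without knockout replicate 3.

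Grb2, the adaptor next in line after Shc1, stood at 134, 142 and 130 CPM in knockout libraries and at 310, 148 and 147 CPM in wild type libraries. The difference lay almost wholly in wild type replicate 1, and the log2 fold change of -0.57 (SE 0.31, edgeR adjusted p = 0.57) was -0.12 without it. Grb2 lies on chromosome 11 at 115644045 to 115708597 in GRCm38. Of the 119 other table genes within 5 Mb of it, 117 were higher in wild type replicate 1 than their mean in the other 5 libraries, by a median of 1.17 on the log2 scale, against 0.0016 over all genes. None of the 10 members lies in that stretch.

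Pik3r1, the p85-type regulatory subunit that docks on middle T, had the most reads of the 10. It stood at 818, 738 and 1158 CPM in knockout libraries and at 629, 894 and 869 CPM in wild type libraries. Knockout replicate 3 was the highest and wild type replicate 1 the lowest library, and the others overlapped. Pik3r1 had a log2 fold change of 0.18 (SE 0.22, 95% interval -0.36 to 0.72, edgeR adjusted p = 0.74), which was -0.03 without knockout replicate 3. The gene lies on chromosome 13 at 101680563 to 101768217, minus strand, and has 2 RefSeq promoter windows. The gene is known to make shorter regulatory subunits too, which counts per gene do not tell apart.

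Pik3ca, the catalytic subunit p110 alpha and a frequent site of activating mutations in breast cancer, was with Ppp2r1a among the steadiest members. It stood at 106.7, 104.5 and 116.2 CPM in knockout libraries and at 106.8, 105.7 and 107.7 CPM in wild type libraries. The groups overlapped, and 4.78% of genes had a smaller span over the 6 libraries than its 1.11 times (4.90% for Ppp2r1a). The log2 fold change of 0.03 (SE 0.07, edgeR adjusted p = 0.86) had a 95% interval of -0.13 to 0.19. Pik3ca lies on chromosome 3 at 32397671 to 32468486, plus strand.

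Relative to its sister subunits Pik3ca took a somewhat larger share in every knockout library. It made up 35.6, 38.1 and 36.4% of the class IA catalytic level in knockout libraries and 30.2, 33.5 and 33.4% in wild type libraries. The shares did not overlap, and the two-sided exact permutation p was 0.1, the smallest possible here, with an adjusted p of 0.79 over the 9 tests. The sister gene Pik3cb, encoding p110 beta, stood at 141, 121 and 155 CPM in knockout libraries and at 189, 159 and 163 CPM in wild type libraries. Its groups did not overlap either, and it was not called (log2 fold change -0.29, SE 0.12, edgeR adjusted p = 0.57). Pik3cd, encoding p110 delta of leukocytes, stood at 10.1, 11.4 and 5.05 CPM in knockout libraries and at 5.43, 6.70 and 6.45 CPM in wild type libraries. Of the regulatory subunits, Pik3r1 held 67.8% ± 4.91 in knockout and 65.4% ± 5.66 in wild type libraries (SD, n = 3 each; two-sided exact permutation p = 0.6). Pik3r2 held 23.2% in knockout and 26.7% in wild type libraries, and Pik3r3 9.07% in knockout and 7.93% in wild type libraries. Of the exon bases of Pik3r3 24.3% overlap Gm49337, a gene on the same strand that was not among the rows.

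With Pik3cb and Pik3cd included, 9 of 12 listed PI3-kinase and phosphoinositide phosphatase genes were in the table. Of these 0 passed, 5 lay above and 4 below 0, and the median was 0.17 on the log2 scale. The groups did not overlap for 3 of the 9, Inpp5d with knockout above and Pik3cb and Inpp5e with knockout below. Over all genes 17.4% did not overlap, 8.39% with knockout above and 9.05% below. Inpp5d, the SHIP1 phosphatase of blood cells, stood at 11.04, 12.1 and 6.66 CPM in knockout libraries and at 4.80, 6.28 and 5.69 CPM in wild type libraries. The groups did not overlap, and edgeR did not call the gene (log2 fold change 0.83, SE 0.26, adjusted p = 0.57). Leukocyte markers lay the same way: all 15 of the 20 listed that were in the table lay above 0. The groups did not overlap for 3 of the 15. Their summed level was 830 to 1260 CPM in knockout and 465 to 810 CPM in wild type libraries. Most of this sum was Lyz2, at 571 to 822 CPM in knockout and 257 to 530 CPM in wild type libraries. Without Lyz2 the sums of the groups overlapped, with knockout replicate 3 below wild type replicate 2. The part of leukocytes in the values of Inpp5d and Pik3cd was not tested. In such bulk libraries fewer cells of a type and less RNA per cell cannot be told apart.

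Akt1, the kinase that is recruited to the lipid made by PI3-kinase, came nearest to a difference. It stood at 285, 272 and 252 CPM in knockout libraries and at 332, 301 and 327 CPM in wild type libraries. All knockout libraries lay below all wild type libraries. The mean was 269 CPM ± 16.7 in knockout and 320 CPM ± 16.7 in wild type libraries (SD, n = 3 each), which is a fold of 0.84 with a 95% interval of 0.73 to 0.97. The log2 fold change was -0.25 (SE 0.08), with an unadjusted p of 0.023 and an edgeR adjusted p of 0.57 over all genes. It lay between -0.29 and -0.20 when any library was left out or another test or scaling was used, and the adjusted p between 0.24 and 0.89. Akt1 lies on chromosome 12 at 112653821 to 112674884, minus strand, and has 2 RefSeq promoter windows.

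Luminal epithelial markers also lay below 0, all 14 of the 15 listed that were in the table, with a summed level of 4494 to 5598 CPM in knockout and 7049 to 8126 CPM in wild type libraries. Their part in the value of Akt1 was not tested. Akt2, a close relative of Akt1, stood at 122, 107 and 118 CPM in knockout libraries and at 147, 123 and 122 CPM in wild type libraries. The groups overlapped, and the log2 fold change of Akt2 was -0.17 (SE 0.10, edgeR adjusted p = 0.58), and -0.08 without wild type replicate 1.

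**Figure D3:**
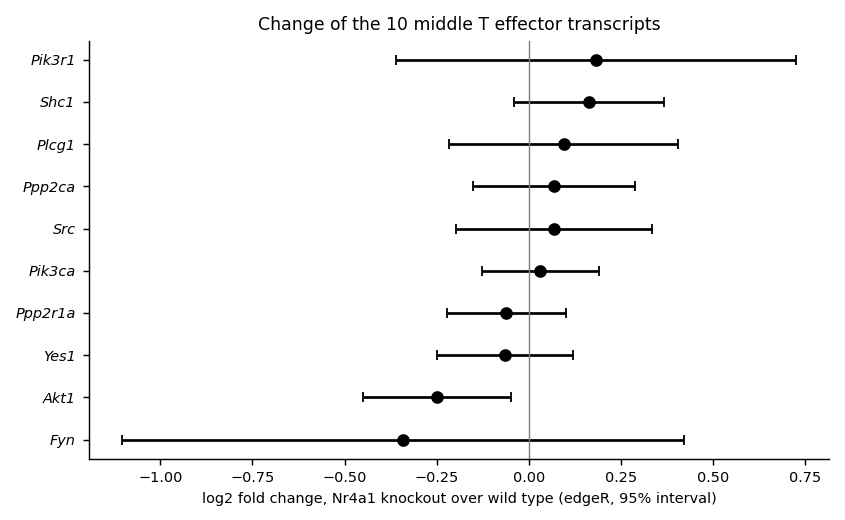
Log2 fold change of each of the 10 transcripts, knockout over wild type, with its 95% interval from the edgeR fit. The interval of Akt1 (-0.45 to -0.05) lies below 0, those of the other 9 include 0, and Fyn (-1.10 to 0.42) and Pik3r1 (-0.36 to 0.72) have the widest.

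All 20 listed genes around Akt were in the table. Of these 0 passed, 6 lay above and 14 below 0, with a median log2 fold change of -0.08. The groups did not overlap for 5 of the 20, 1 above and 4 below, where 8.39% of all genes lay apart with knockout above and 9.05% with knockout below. Rheb, the GTPase that activates mTOR, was the one with knockout above, at 122, 142 and 139 CPM in knockout libraries and 112, 121 and 112 CPM in wild type libraries (log2 fold change 0.22, SE 0.08, edgeR adjusted p = 0.57). Mtor, Gsk3a, Akt1s1 and Rptor had knockout below wild type. Rptor, the raptor subunit of mTOR complex 1, stood at 95.3, 92.7 and 86.3 CPM in knockout libraries and at 227, 103 and 117 CPM in wild type libraries. Its log2 fold change of -0.70 (SE 0.31, edgeR adjusted p = 0.57) was -0.27 without wild type replicate 1. Rptor lies on chromosome 11 at 119602905 to 119899576, in the same stretch as Grb2.

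The PP2A core that middle T takes over consists of a scaffold and a catalytic subunit, and both transcripts were even across the libraries. Ppp2r1a, the scaffold, stood at 251, 236 and 247 CPM in knockout libraries and at 263, 256 and 247 CPM in wild type libraries. The groups overlapped, with a log2 fold change of -0.06 (SE 0.07, edgeR adjusted p = 0.71, 95% interval -0.22 to 0.10). It made up 90.1% ± 1.08 of the scaffold level in knockout and 91.0% ± 1.15 in wild type libraries (SD, n = 3 each; two-sided exact permutation p = 0.5), the rest being Ppp2r1b. Of the exon bases of Ppp2r1b 22.2% overlap Sik2, a gene on the opposite strand that was among the rows. It shares 38.7% of its 31-base words with Sik2. Ppp2r1a lies on chromosome 17 at 20945311 to 20965916, plus strand.

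Ppp2ca, the catalytic subunit, stood at 243, 246 and 288 CPM in knockout libraries and at 250, 253 and 237 CPM in wild type libraries. Knockout replicate 3 was the highest, and the groups overlapped. On the log2 scale knockout over wild type was 0.07 (SE 0.09, 95% interval -0.15 to 0.29, edgeR adjusted p = 0.76). Ppp2ca lies on chromosome 11 at 52098681 to 52127778, plus strand. An annotated RNA on the opposite strand, 9430098F02Rik, overlaps 39.9% of its exon bases. Of the 31-base words of Ppp2ca 45.4% occur in other genes, nearly all of them (41.5%) in that same RNA. The strand setting of the counting is not stated, so the reads of Ppp2ca cannot be assigned with certainty.

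The sister gene Ppp2cb encodes a catalytic subunit whose coding sequence matches that of Ppp2ca at 760 of 930 bases (81.7%). Ppp2cb stood at 145, 149 and 129 CPM in knockout libraries and at 109, 142 and 136 CPM in wild type libraries. Per kb, Ppp2ca held 26.5% ± 3.37 of the pair in knockout and 27.5% ± 3.04 in wild type libraries (SD, n = 3 each; two-sided exact permutation p = 0.5). This share divides by a long annotated exon length of 7490 bases for Ppp2ca, against 1469 for Ppp2cb. Of the other PP2A subunits and regulators, 21 of 23 were in the table, with 0 passing, 15 above 0, 6 below, and the median at 0.02 on the log2 scale. The groups did not overlap for 3 of the 21, not more than the 17.4% of all genes. The B56-type subunit Ppp2r5a had the smallest p among those above 0 (log2 fold change 0.13, SE 0.06) and striatin, Strn, among those below (-0.20, SE 0.08), both with an edgeR adjusted p of 0.57. The other was Ppp2r2a, a B-type regulatory subunit of the kind middle T displaces, at 92.9, 90.9 and 88.5 CPM in knockout libraries and 75.4, 85.5 and 88.0 CPM in wild type libraries.

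Plcg1, the phospholipase C that docks on middle T and makes the messengers for calcium release and protein kinase C, stood at 136, 147 and 125 CPM in knockout libraries and at 108, 127 and 147 CPM in wild type libraries. The groups overlapped over nearly their whole range, with a log2 fold change of 0.09 (SE 0.13, edgeR adjusted p = 0.77, 95% interval -0.22 to 0.40). Plcg1 held 49.8% ± 2.66 of the phospholipase C gamma level in knockout and 45.7% ± 3.06 in wild type libraries (SD, n = 3 each; two-sided exact permutation p = 0.3), the rest being Plcg2, the form best known from blood cells. Plcg1 lies on chromosome 2 at 160731300 to 160775760, plus strand. Of the genes listed around it, 9 of 12 were in the table, with 0 passing and 4 above and 5 below 0. Of the 9, 0 had groups without overlap, where 17.4% of all genes did not overlap. Itpr2, a calcium release channel, had the smallest p above 0 (log2 fold change 0.17, SE 0.11), and Dgka, a diacylglycerol kinase, below (-0.14, SE 0.08).

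The Ywha genes and Sfn encode phosphoserine-binding adaptors that middle T also binds, and all 7 were in the table, with 0 passing, 4 above and 3 below 0 and 0 without overlap. Ywhab had the smallest p above 0 (log2 fold change 0.06, SE 0.07) and Ywhah below (-0.07, SE 0.08). Over all pathway lists together, 101 of 116 genes were in the table. Of these 0 passed in edgeR and 0 in DESeq2, 4 had an unadjusted edgeR p under 0.05, and 16 had groups without overlap, 4 with knockout above and 12 below. Over all genes 7.88% had such a p and 17.4% did not overlap, 8.39% with knockout above and 9.05% below, so neither total was more than the background. Their median log2 fold change was -0.02.

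**Figure D4:**
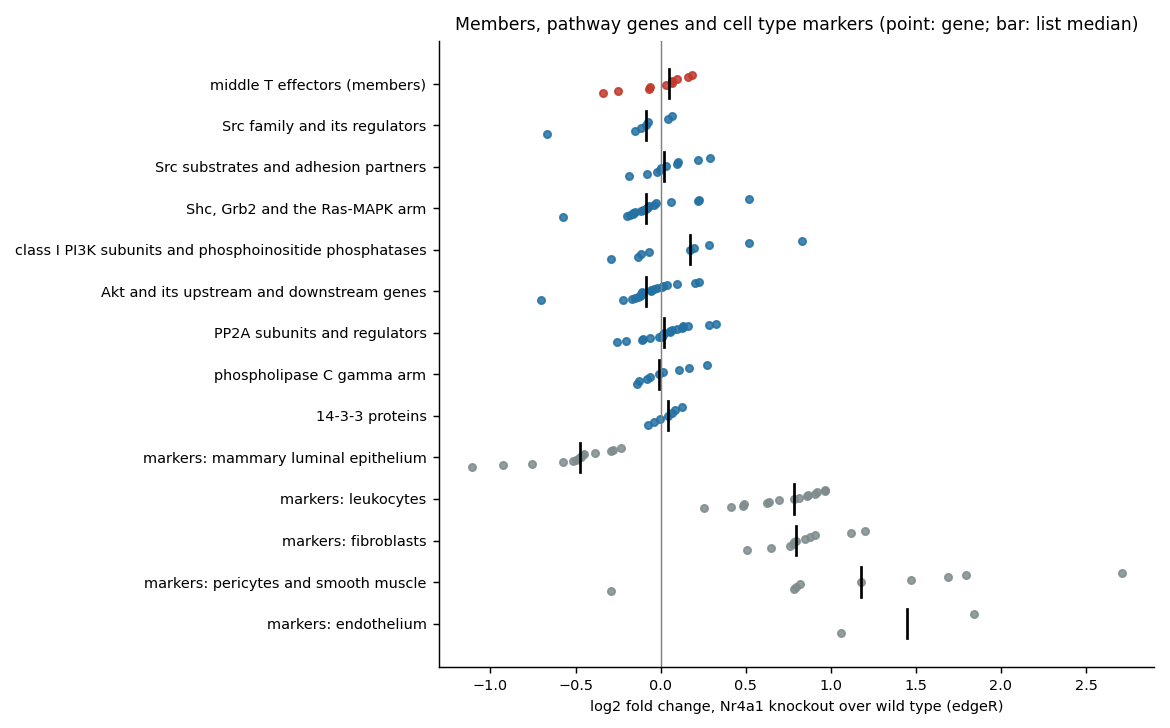
Log2 fold change (knockout over wild type, edgeR) of the 10 members (red), of the genes of each pathway list (blue) and of each list of cell type markers (grey), 1 point per gene in the table with a bar at the list median. The member and pathway medians lie between -0.09 and 0.17, and the marker medians at -0.47 for luminal epithelium and between 0.79 and 1.45 for the other 4 lists.

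The members differed widely in level per kb of annotated exon. Over all 6 libraries the order was Pik3r1 at 84.4 ± 17.7 CPM per kb, Ppp2r1a at 73.3 ± 2.66, Akt1 at 71.9 ± 7.68, Src at 48.9 ± 4.40, Ppp2ca at 33.7 ± 2.40 and Shc1 at 23.7 ± 2.11 CPM per kb (SD over the 6 libraries of both groups). Below these came Plcg1 at 16.7 ± 1.88, Fyn at 12.3 ± 4.14, Pik3ca at 11.9 ± 0.46 and Yes1 at 8.99 ± 0.49 CPM per kb (SD, same 6 libraries). The ranges of Pik3r1, Ppp2r1a and Akt1 overlapped, as did that of Fyn with those of Plcg1 and Pik3ca, so that these neighbours did not differ beyond their spread. The ranges of all other neighbours in the order did not overlap. Levels at the top of the list were higher than those of 91.4% (Src) to 95.6% (Pik3r1) of the 10921 table genes with a matched length, and Yes1 was higher than 48.6%. With the longest transcript as the length, the neighbours Akt1 and Ppp2r1a changed places, as did Shc1 and Ppp2ca, and Yes1 and Pik3ca.

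Some members followed each other over the 6 libraries, as a description of 6 points without a test. Pik3ca and Ppp2ca had the highest Pearson correlation of log2 CPM (r = 0.86, n = 6), and without wild type replicate 1 it was also 0.86 (n = 5). Pik3r1 was most like Pik3ca (r = 0.77, n = 6, and 0.94 without that library). Src and Plcg1 had r = 0.80 (n = 6), and 0.43 without that library. Shc1 was most like Plcg1 (r = 0.63, and 0.45 without wild type replicate 1). Yes1 and Ppp2r1a were most like each other (r = 0.62, and 0.39 without wild type replicate 1). So were Fyn and Akt1 (r = 0.60, and 0.26 without wild type replicate 1). Knockout replicate 3 was the highest library for Pik3ca, Pik3r1 and Ppp2ca. Among all other genes the closest had r between 0.985 and 0.998. Each is the highest r over the whole table on 6 points, so values this high can arise by selection alone. The closest genes were Kpna1 for Src, H19 for Yes1, Rpl13a for Fyn, Pdlim1 for Shc1, Ccdc50 for Pik3ca, Zfp445 for Pik3r1, Man1a2 for Ppp2ca, 2310011J03Rik for Ppp2r1a, Fes for Plcg1 and Usp27x for Akt1.

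The libraries held 19569173 to 24188875 counts, and the members 747 (Fyn) to 22950 (Pik3r1) counts per library, so that counting error alone was at most 3.66% of any member's value. The first principal component of log2 CPM carried 60.1% of the variance and set wild type replicate 1 apart, at 51.3 against -28.8 to 2.22 in the other 5 libraries. The targeted gene Nr4a1 was not lower in the knockout libraries, at 612, 847 and 746 counts in knockout and 711, 406 and 358 counts in wild type libraries, so every direction given is between libraries as labelled. Counts per gene do not show whether these reads cover the disrupted part. The luminal keratin Krt8 stood at 933 to 1368 CPM in knockout and 1106 to 1743 CPM in wild type libraries, so this defining marker of the labelled tissue was present. Summed markers of fibroblasts (11 of 13 in the table) stood at 6005 to 10680 CPM in knockout and 2737 to 6536 CPM in wild type libraries. Those of pericytes and smooth muscle (9 of 10) stood at 953 to 2083 CPM in knockout and 345 to 1163 CPM in wild type libraries, and those of endothelium (2 of 10, Eng and Esam) at 42.3 to 118 CPM in knockout and 14.4 to 47.2 CPM in wild type libraries. The leukocyte genes Cd3e, Spi1, Fcer1g and Aif1 and the endothelial genes Pecam1, Cdh5, Kdr, Tek, Tie1, Emcn, Vwf and Cldn5 were not among the rows. The part of these cell types in the members' values was not tested.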

How the data were processed

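The authors deposited raw counts of reads per gene symbol, with 1 column per library, from paired-end libraries made with a NEBNext Ultra kit, per the labels' protocols. CASAVA 1.8, HISAT2, featureCounts and GRCm38 (mm10) are named in the submitters' processing notes; the annotation, the strand setting and the rule that removed low genes (the highest count of every row was at least 133) are not stated there. Symbols were matched to GENCODE M21: 10921 to 1 gene, 17 to several and 56 to none.

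All 10995 rows were fitted with edgeR 4.0.16 in R 4.3.3 (filterByExpr, which removed 0 genes, TMM scaling, robust quasi-likelihood F test, group as the only term, Benjamini-Hochberg adjustment over all genes at 0.05). Each SE is the size of the log2 fold change over the square root of its F statistic, and intervals at 95% use this SE. DESeq2 1.42.0 and limma-voom (limma 3.58.1) were alternatives, beside other scalings, filters, a replicate block and each library left out. Log2 CPM used a prior count of 2. Shares used the union of exons, with the longest transcript as the alternative. The tests were checked on simulated counts. Sequence words of 31 bases were compared with Python 3.11.15.

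The members and all gene lists were chosen by role with earlier results of these data known. Named were all members, their families, the gene with the smallest p in each direction of each list, and the closest gene in pattern. Genes named beyond this rule, such as Grb2, Inpp5e and Ppp2r2a, and the comparison of chromosome neighbours were chosen after their values were seen. A few genes that the rule names, and the share of Akt1, are not reported here.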

Additional observations from a re-analysis of the deposited data

How the results depend on the processing

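No member passed the threshold under any of the 14 alternatives, DESeq2, limma-voom and an adjusted p of 0.1 included. Over all genes DESeq2 called 64 higher and 39 lower, and with 1 library left out edgeR called 0 to 1 higher and 0 to 1 lower, the calls arising without wild type replicate 2. The median log2 fold change of the members was 0.073 with scaling by library size alone and -0.024 to 0.056 with 1 library left out, lowest without knockout replicate 3. Yes1, Shc1, Ppp2r1a and Akt1 kept their sign in all 13 refits. For the other members the sign turned with 1 library left out. Without wild type replicate 1 it turned for Src (range -0.017 to 0.13), Fyn (-0.54 to 0.032) and Plcg1 (-0.0096 to 0.21). Without knockout replicate 3 it turned for Pik3ca (-0.014 to 0.062), Pik3r1 (-0.034 to 0.31) and Ppp2ca (-0.012 to 0.11). Shares, as knockout minus wild type in percentage points, turned with 1 library left out for Src (-0.78 to 6.49), Yes1 (-0.57 to 0.099), Fyn (-4.25 to 0.25), Pik3r1 (-0.90 to 4.28) and Ppp2ca (-2.89 to 0.80), and kept their sign for Pik3ca, Ppp2r1a and Plcg1. Among these alternatives only leaving out a library turned a sign; the cause was not tested. Deviations of same-numbered libraries from their group means had correlations of -0.11, 0.35 and -0.25. Differently numbered libraries were not compared, so these values do not settle whether the numbers pair the samples. With a replicate block edgeR called 0 genes, and the log2 fold change of Akt1 was -0.25 (edgeR adjusted p = 0.62). Counting error was at most 3.66% of any member's value, and none of the alternatives varied depth.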

Other observations

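Grb2 and Rptor, both downstream of middle T, lie in a stretch of chromosome 11 where wild type replicate 1 stood above the other libraries. Over the 98 table genes that start between 110 and 120 Mb the median log2 difference of wild type replicate 1 from the mean of the other 5 libraries was 1.17, and over the 50 from 120 Mb on it was 1.01. In the 11 windows of 10 Mb before these the medians of that library lay between -0.40 and -0.031. Within 5 Mb of Rptor 130 of 136 genes were above 0, with a median of 1.13. Rptor itself was 2.31 and Grb2 2.21 times the mean of the other libraries.

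Fyn and Pag1, which also stood high in wild type replicate 1 (1.88 and 2.92 times), had no such neighbours: the medians of the 37 and 20 table genes within 5 Mb of them were 0.02 and -0.06. Ppp2ca, the member on chromosome 11, lies outside the stretch. It was at -0.02 in that library, while the median of its 70 neighbours was -0.23 and 14 of them lay above 0. These windows were chosen after the values had been seen, and the cause was not tested.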
